A study of Mus musculus with 12 samples.

Results

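The 10 genes described here encode enzymes that make serine, one-carbon units, asparagine, proline and cysteine. They were taken by gene name from a table of 55536 genes measured by RNA sequencing in thyroids of 12 mice, with 1 library per mouse. The 5 affected mice were B6NTac animals with thyroid dysplasia. The 7 unaffected mice were 6 wild type B6NCrl animals and 1 B6NTac animal of a mutant strain without the phenotype, here called the unaffected B6NTac mouse. The B6NTac colony is where the study found a LINE-1 element inserted in *Tg*, the gene of thyroglobulin. The labels used here give no *Tg* genotype, age or sex for single mice. Affected and unaffected mice therefore also differ in colony, apart from that 1 mouse, and the effect of the phenotype cannot be told apart from that of the colony. Whole thyroids were sequenced, so fewer cells of a type and less RNA per cell cannot be told apart. The group of genes was chosen by pathway with the read counts of affected against unaffected mice in view, and no numerical threshold defined it. That difference is therefore described for these genes without a test.

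Serine is made from a glycolytic intermediate by *Phgdh*, *Psat1* and *Psph* in turn. Its breakdown to glycine by *Shmt2* in mitochondria passes a one-carbon unit to folate, and *Mthfd2* and *Mthfd1l* carry that unit on to formate for purine synthesis. *Asns* makes asparagine from aspartate, *Aldh18a1* and *Pycr1* make proline from glutamate, and *Cth* releases cysteine from cystathionine. Several of these genes are textbook targets of ATF4, the transcription factor that is translated when protein folding in the endoplasmic reticulum (ER) or amino acid supply fails. In the thyroid, the ER of follicular cells is occupied largely with the folding of thyroglobulin.

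Promoter sequence bears on genes that move together, so the 300 bases from 250 before to 50 after the annotated start of each gene (RefSeq, GRCm38.p6) were searched on both strands for 3 motifs. An entry was found for 9 of the 10 genes. The C/EBP-ATF element, which binds dimers of ATF4 with a C/EBP protein and was searched as TGATGNAA, was present in 2 of these 9, *Asns* and *Pycr1*. It was present in 3.97% of all 32851 promoters. The 30 bases around each match are shown here 5′ to 3′ on the gene's strand, with the match in capitals.
*Asns* (chr6:7693214-7693243, minus strand): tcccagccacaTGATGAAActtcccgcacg
*Pycr1* (chr11:120643833-120643862, minus strand): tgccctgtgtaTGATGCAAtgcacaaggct
The *Asns* match began 23 bases before the RefSeq start and the *Pycr1* match 103 bases before it. The first lies inside the longer gene model of Ensembl, which reaches to 7693254. The unfolded protein response element TGACGTGG and the ER stress response element ERSE, present in 0.676% and 0.119% of all promoters, were found in none of the 9. These matches describe letters in this window and not binding.

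The libraries held 20170500 to 23319948 gene counts in affected mice and 11434901 to 22401136 in unaffected mice, the lowest being the unaffected B6NTac mouse. Of 19661 genes tested, 1500 were higher and 1199 lower in affected mice. With library totals that leave out *Tg*, 607 were higher and 1720 lower, and the median of all genes shifted from 0.01 to -0.13 on the log2 scale. Follicular cells were present in each library, with *Tg* between 100510 and 303613 CPM (counts scaled to the normalized library total). In affected mice 1 of 10 follicular markers was lower and 3 of 7 macrophage markers were higher. Summed macrophage markers reached 152 to 244 CPM in affected and 73.6 to 183 CPM in unaffected mice. Markers of T and B cells set 4 libraries apart, summing to 204 and 202 CPM in unaffected mice 14 and 21 and to 84.5 and 29.7 CPM in affected mice 1 and 3, against 1.99 to 3.06 CPM in the other 8. Unaffected mice 14 and 21 also held the highest summed markers of dividing cells, at 111 and 84.6 CPM. The part of these cells in the results that follow was not tested beyond leaving these libraries out.

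Of the 10 enzymes, *Mthfd2*, *Asns* and *Pycr1* had the highest fold changes in affected thyroids, followed by *Phgdh*, *Psat1*, *Shmt2* and *Aldh18a1*. *Mthfd1l* and *Psph* were nearer to their unaffected level, and *Cth* was near the limit of detection. An adjusted p under 0.05 for a higher level in affected mice was reached by 7 of the 10, beside 7.63% of all genes tested. In 4 of the 10 every affected mouse was above every unaffected mouse in CPM, beside 3.78% of all genes. Both counts are fixed in part by how the genes were chosen, and nothing is read from them. Without unaffected mice 14 and 21 the first count was 6, and without affected mice 1 and 3 as well it was 5, with *Aldh18a1* lost in the first case and *Aldh18a1* and *Pycr1* in the second. The summed level of the 10 was 181 ± 27.3 CPM (SD, n = 5) in affected mice and 88.3 ± 8.72 CPM (SD, n = 7) in unaffected mice. Fold changes are of affected over unaffected mice, and values of affected mice follow the order of mice 1, 3, 4, 5 and 6, and unaffected mice are numbered 14 (B6NTac) and 21 to 26 (B6NCrl).

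**Figure D1:**
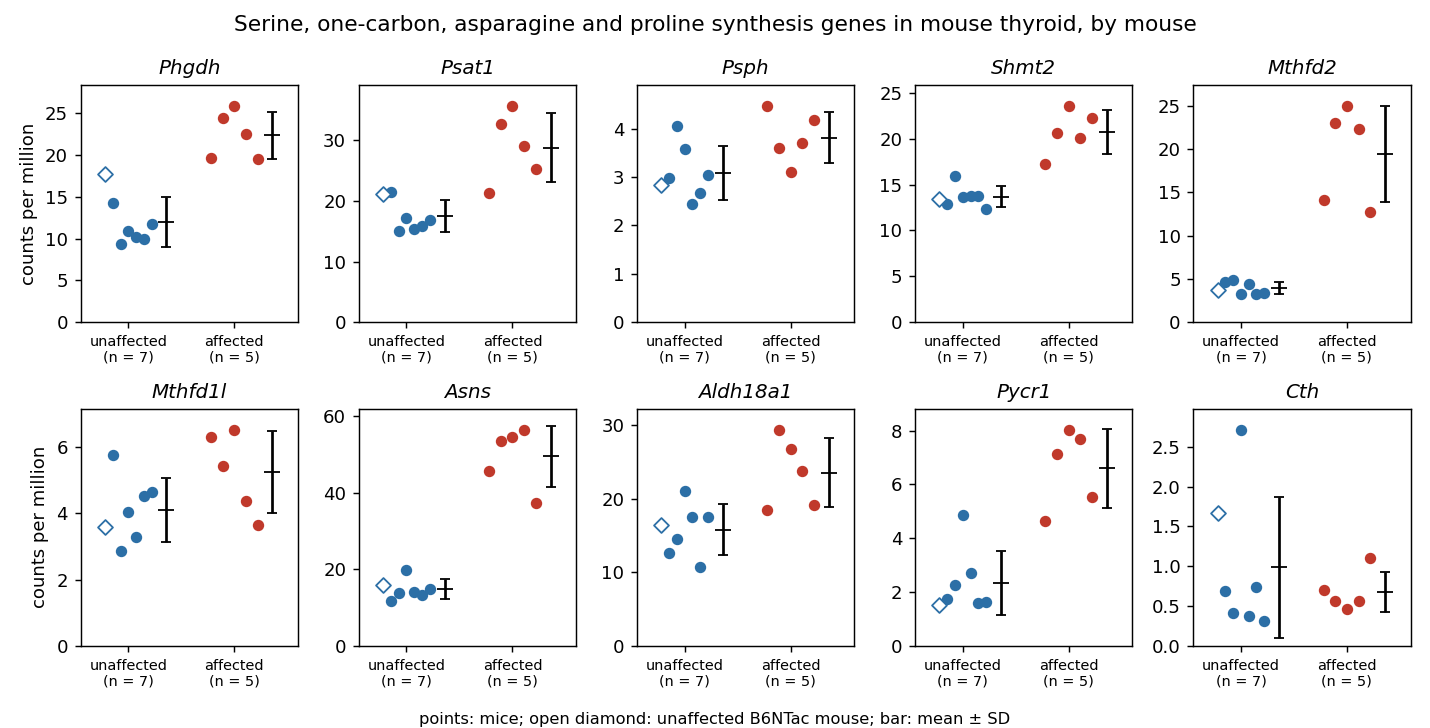
CPM of each of the 10 genes (vertical axes, linear and from 0) in each mouse, with unaffected mice in blue, affected mice in red, the unaffected B6NTac mouse as an open diamond, and black bars for the mean ± SD. *Asns* and *Mthfd2* separate the groups widely, and *Shmt2* and *Phgdh* separate them narrowly. The groups overlap for *Psat1*, *Psph*, *Mthfd1l*, *Aldh18a1*, *Pycr1* and *Cth*.

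*Phgdh*, which commits glycolytic carbon to serine (minus strand of chromosome 3, GRCm38, 98313170 to 98339990), had 19.6, 24.5, 25.8, 22.5 and 19.5 CPM in affected mice. The unaffected mice ranged from 9.34 to 17.7 CPM with a median of 10.9. The groups did not overlap in CPM, and the nearest unaffected mouse was the B6NTac animal at 17.7 CPM, above the 6 B6NCrl mice at 9.34 to 14.3. In FPKM that mouse, at 10.98, was above affected mouse 6, at 9.54. Its log2 fold change was 0.90 ± 0.15 (SE), or 1.87-fold. Its estimated counts were fractional in each of the 12 mice, and those of *Psph* in 11, as estimated counts are where reads match more than 1 locus. The authors' gene entries are marked as confounded for *Psat1*, *Psph*, *Shmt2*, *Mthfd2*, *Mthfd1l*, *Aldh18a1* and *Cth*. Those of *Asns*, *Phgdh* and *Pycr1* are not, and the study's methods do not define this mark.

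*Psat1*, the aminotransferase of the second step (minus strand of chromosome 19, 15904678 to 15947337), had 21.4, 32.7, 35.6, 29.1 and 25.3 CPM in affected mice against 15.1 to 21.5 CPM in unaffected mice (median 16.9). Affected mouse 1 lay within the unaffected range, below mouse 21 at 21.5 CPM, and the other 4 lay above it. On the log2 scale *Psat1* was higher by 0.71 ± 0.13 (SE).

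*Psph*, the phosphatase that releases serine (minus strand of chromosome 5, 129765558 to 129787449), had 4.46, 3.60, 3.10, 3.72 and 4.19 CPM in affected mice. Unaffected mice had 2.44 to 4.07 CPM with a median of 2.99. The groups overlapped, with 2 of 5 affected mice above the highest unaffected mouse. Its log2 fold change was 0.30 ± 0.15 (SE), the smallest of the 3 serine enzymes. On the other strand, *Cct6a* covers 10.4% of the exon bases of *Psph* and was at 65.7 CPM in affected and 65.0 CPM in unaffected mice.

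*Shmt2*, the mitochondrial serine hydroxymethyltransferase (minus strand of chromosome 10, 127517123 to 127522444), had 17.2, 20.6, 23.5, 20.1 and 22.2 CPM in affected mice and 12.4 to 15.9 CPM in unaffected mice (median 13.6). The groups did not overlap, and the spread within each was narrow. Affected mice were higher by a log2 fold change of 0.60 ± 0.09 (SE), or 1.51-fold. *Shmt2* had the smallest standard error of the 10.

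*Mthfd2*, the mitochondrial methylenetetrahydrofolate dehydrogenase best known from embryonic and dividing cells (minus strand of chromosome 6, 83305691 to 83325908), had 14.1, 23.0, 24.9, 22.3 and 12.7 CPM in affected mice. In unaffected mice it had 3.20 to 4.85 CPM with a median of 3.76. The lowest affected mouse was well above the highest unaffected mouse, and affected mice 1 and 6 lay apart from the other 3. The log2 fold change of *Mthfd2* was 2.30 ± 0.19 (SE), or 4.93-fold, the highest of the 10. Markers of dividing cells summed to 20.7 to 34.1 CPM in affected mice, above the 6.29 to 9.79 CPM of 5 unaffected mice and below the 84.6 and 111 CPM of unaffected mice 21 and 14. With all 12 mice 0 of 7 passed the test (0 at an unadjusted p under 0.05). Without those 2 unaffected mice 5 of 6 were higher in affected mice, beside 1081 of all 19261 genes in that fit. Leaving out the 2 mice highest in these markers fixes that count in part, and nothing is read from it. *Mki67* was then higher in affected mice by 1.73 ± 0.19 (SE) on the log2 scale. *Mthfd2* was higher by 2.34 ± 0.22 (SE) in the same fit, and the part of dividing cells in its level was not tested.

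*Mthfd1l*, the mitochondrial formyltetrahydrofolate synthetase that releases formate (plus strand of chromosome 10, 3973118 to 4167081), had 6.30, 5.43, 6.51, 4.37 and 3.64 CPM in affected mice and 2.87 to 5.77 CPM in unaffected mice (median 4.04). The groups overlapped, with 3 of 7 unaffected mice below the lowest affected mouse. Its log2 fold change was 0.35 ± 0.19 (SE). Its level per length was among the lowest of the 10 in both groups.

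The folate enzymes that accompany these 3 were compared as tested genes. *Aldh1l2*, the mitochondrial formyltetrahydrofolate dehydrogenase that yields NADPH, was at 18.2, 28.3, 57.8, 35.3 and 22.7 CPM in affected mice and 0.751 to 10.2 CPM in unaffected mice (median 1.48). The groups did not overlap, and unaffected mouse 23 stood far above the other 6. *Aldh1l2* rose by a log2 fold change of 3.57 ± 0.62 (SE; 4.46 without unaffected mouse 23), with an adjusted p of 0.0036 (quasi-likelihood test of edgeR, adjusted by the Benjamini-Hochberg method, as is each adjusted p of a fold change in the text). With the 4 libraries rich in T and B cell markers left out, *Aldh1l2* was at 3.51 with an adjusted p of 0.0533. On the other strand, *D10Wsu102e* covers 14.1% of the exon bases of *Aldh1l2*, whose counts were fractional in 12 mice. *D10Wsu102e* itself was at 292 ± 20 CPM (SD, n = 5) in affected and 297 ± 22.5 CPM (SD, n = 7) in unaffected mice.

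*Mthfd2l*, the isozyme of *Mthfd2* found in adult tissues, changed the other way, with a log2 fold change of -0.28 ± 0.08 (SE, adjusted p = 0.0437). The call on *Mthfd2l* was lost in 18 of 24 alternative analyses, all of which kept its direction. In FPKM, fragments scaled to gene length and library size, *Mthfd2* was below *Mthfd2l* in each of the 7 unaffected mice, at 0.506 ± 0.0779 (SD) of its FPKM, and above it in each of the 5 affected mice, at 2.40 ± 0.67 (SD) of its FPKM. The order of these isozymes thus differed between the groups without overlap.

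*Shmt1*, the cytosolic counterpart of *Shmt2*, was at 12.4, 8.33, 8.32, 8.39 and 12.9 CPM in affected mice and 4.61 to 9.29 CPM in unaffected mice (median 6.22). It rose by a log2 fold change of 0.65 ± 0.17 (SE, adjusted p = 0.0265), a call lost in 8 of 24 alternatives. *Shmt1* was highest in affected mice 1 and 6, the mice in which *Mthfd2* was lowest. The ratio of *Shmt2* to *Shmt1* in FPKM was 2.68 ± 0.628 (SD, n = 5) in affected and 2.85 ± 0.513 (SD, n = 7) in unaffected mice, a difference smaller than the spread between mice. *Mthfd1*, the cytosolic enzyme with the activities of both *Mthfd1l* and the dehydrogenases, had a log2 fold change of 0.09 ± 0.10 (SE, adjusted p = 0.593). *Mthfd1l* was at 0.202 ± 0.0596 (SD) of the FPKM of *Mthfd1* in affected mice and at 0.159 ± 0.0305 (SD) in unaffected mice.

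**Figure D2:**
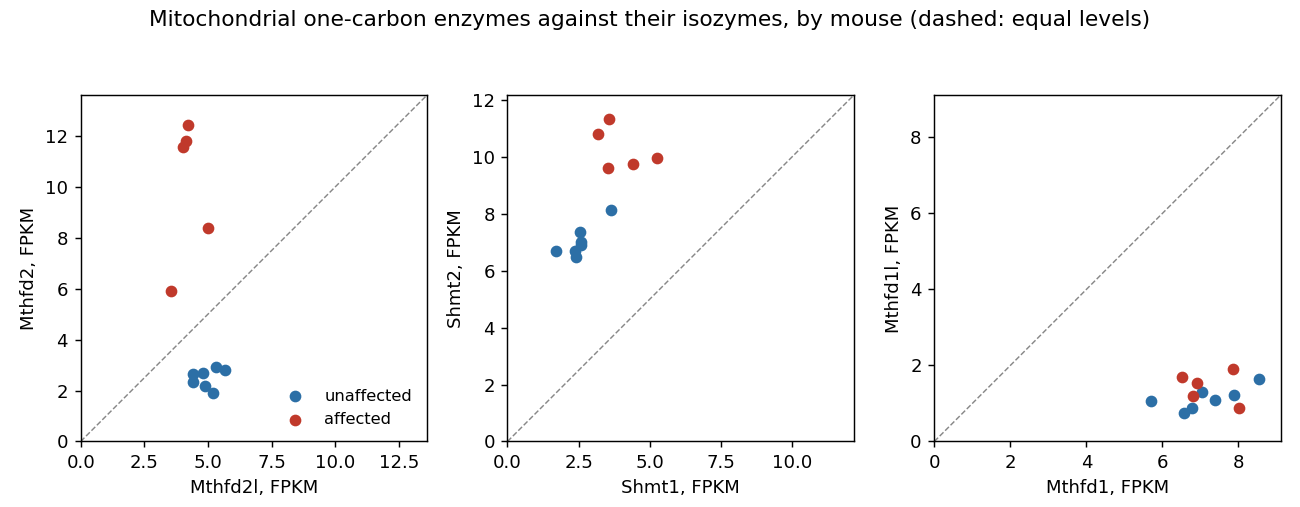
FPKM of 3 mitochondrial one-carbon enzymes (vertical axes) against FPKM of the isozyme or cytosolic counterpart (horizontal axes), 1 point per mouse, with affected mice in red, unaffected mice in blue and equal levels on the dashed line. *Mthfd2* lies under the line in the 7 unaffected mice and over it in the 5 affected mice, while *Shmt2* stays over its counterpart and *Mthfd1l* under its counterpart in both groups.

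*Asns*, asparagine synthetase (minus strand of chromosome 6, 7675169 to 7693254), had 45.8, 53.6, 54.7, 56.4 and 37.5 CPM in affected mice. In unaffected mice it had 11.7 to 19.98 CPM with a median of 14.0. The groups lay far apart, with affected mouse 6 the lowest of its group and unaffected mouse 23 the highest of its own. Between the groups *Asns* differed by a log2 fold change of 1.74 ± 0.13 (SE), or 3.35-fold. It shares no exon base with another annotated gene, its counts were whole in every mouse, and it had at least 191 counts in each library, which makes it one of the best measured of the 10.

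*Aldh18a1*, which makes the glutamate semialdehyde from which proline and ornithine derive (minus strand of chromosome 19, 40550257 to 40588463), had 18.5, 29.3, 26.8, 23.7 and 19.2 CPM in affected mice and 10.7 to 21.1 CPM in unaffected mice (median 16.4). The groups overlapped through unaffected mouse 23, at 21.1 CPM, which was above affected mice 1 and 6. On the log2 scale *Aldh18a1* was higher by 0.58 ± 0.17 (SE).

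*Pycr1*, the mitochondrial reductase that completes proline (minus strand of chromosome 11, 120635712 to 120643769), had 4.64, 7.12, 8.01, 7.69 and 5.52 CPM in affected mice. In unaffected mice it had 1.5 to 4.87 CPM with a median of 1.76. The overlap came from unaffected mouse 23 alone, at 4.87 CPM against 2.70 CPM in the next unaffected mouse and 4.64 CPM in affected mouse 1. The log2 fold change of *Pycr1* was 1.49 ± 0.29 (SE), or 2.81-fold, and 1.77 without mouse 23. *Pycr3*, the cytosolic isozyme, had a log2 fold change of 0.39 ± 0.14 (SE, adjusted p = 0.0958). In FPKM, *Pycr1* was at 0.837 ± 0.298 (SD, n = 5) of *Pycr3* in affected mice and at 0.335 ± 0.176 (SD, n = 7) in unaffected mice, and it was above *Pycr3* in 2 of 5 affected and 0 of 7 unaffected mice.

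*Cth*, cystathionine gamma-lyase (minus strand of chromosome 3, 157894248 to 157925077), had 0.70, 0.564, 0.465, 0.562 and 1.1 CPM in affected mice. In unaffected mice it had 0.309 to 2.71 CPM with a median of 0.685. The groups overlapped over most of their range, and the highest value was in unaffected mouse 23. For *Cth* the log2 fold change was -0.52 ± 0.54 (SE), and without unaffected mouse 23 it was 0.01. With 6 to 55 counts per library and this standard error, a difference of the size seen for *Shmt2* was not detectable in *Cth*.

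Levels can be compared between genes per length, on the FPKM scale. In unaffected mice the order was *Psat1* (7.68 ± 1.55 FPKM, SD, n = 7), *Asns* (7.58 ± 1.34), *Phgdh* (7.27 ± 1.95) and *Shmt2* (7.05 ± 0.557). These first 4 did not differ beyond their spread, with *Psat1* above *Asns* in 2 of 7 mice, *Asns* above *Phgdh* in 5 and *Phgdh* above *Shmt2* in 3. *Aldh18a1* followed at 4.68 ± 1.1 FPKM and *Mthfd2* at 2.50 ± 0.365 FPKM, each below its predecessor in 7 of 7 mice. *Psph* (1.72 ± 0.283 FPKM), *Mthfd1l* (1.14 ± 0.295) and *Pycr1* (1.12 ± 0.605) came next, and *Mthfd1l* was above *Pycr1* in 4 of 7 mice. *Cth* was lowest at 0.643 ± 0.604 FPKM.

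In affected mice *Asns* moved to the first rank at 25.1 ± 4.80 FPKM (SD, n = 5). *Psat1* (12.4 ± 2.27 FPKM), *Phgdh* (12.3 ± 1.70), *Shmt2* (10.3 ± 0.746) and *Mthfd2* (10.02 ± 2.78) then lay close together. *Pycr1*, at 3.50 ± 0.852 FPKM, passed *Psph* at 2.17 ± 0.459 and *Mthfd1l* at 1.44 ± 0.400, and *Cth* stayed last at 0.432 ± 0.135. Which genes separate the groups depended on the scale, as *Phgdh* did so in CPM and not in FPKM, and *Psat1* and *Pycr1* in FPKM and not in CPM. *Asns*, *Shmt2* and *Mthfd2* did so on both. The plot of levels per length shows *Asns* apart from the serine enzymes in affected mice and among them in unaffected mice.

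**Figure D3:**
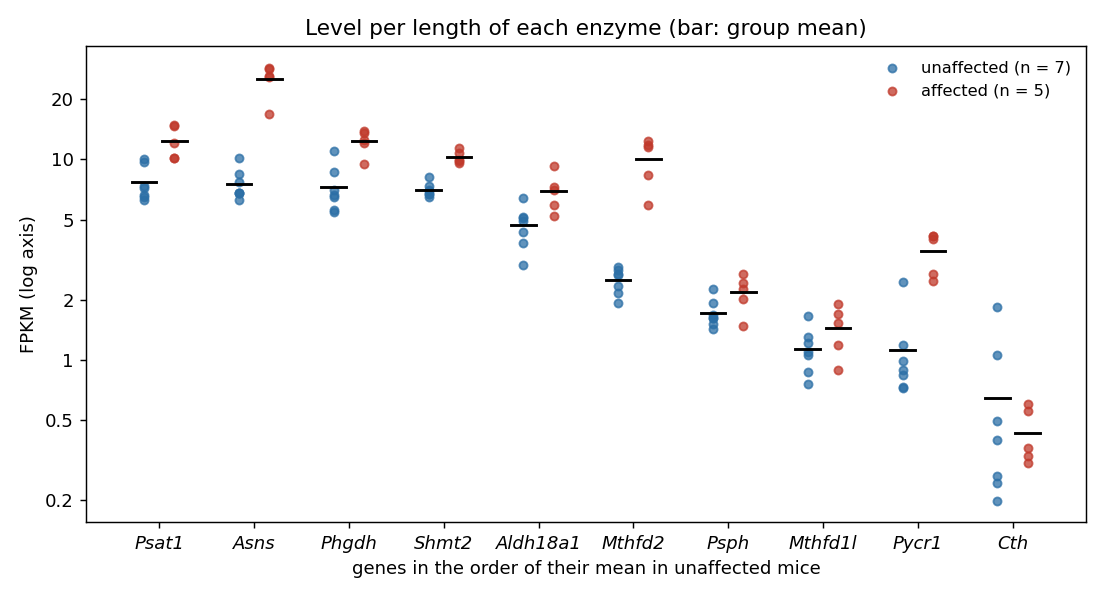
FPKM, the authors' level per length (vertical log axis), of the 10 genes in the order of their mean in unaffected mice, 1 point per mouse, unaffected in blue and affected in red, with a black bar at each group mean. The first 4 genes share a level of about 7 to 8 FPKM in unaffected mice, and *Asns* rises above the rest, to 25.1 FPKM, in affected mice.

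The affected mice differed among themselves, and the genes with a higher level mostly did so together. The mean log2 CPM of the 10 was 3.32, 3.58, 3.62, 3.50 and 3.34 in affected mice and 2.42 to 2.95 in unaffected mice. Among the 10 genes, mouse 4 held the highest value of its group for 6 and the lowest for 2. Mice 1 and 6 each held the lowest for 4 and the highest for 1. Mice 1 and 6 also had the lowest *Tg* of the 12 mice, at 100510 and 119096 CPM against 182641 to 255304 CPM in affected mice 3, 4 and 5. Their other follicular markers summed to 927 and 941 CPM against 1878 to 1930 CPM. *Hspa5*, the ER chaperone BiP, was at 1097 and 944 CPM in them against 1748 to 2323 CPM in the other 3. Skeletal muscle markers summed to 26786 CPM in mouse 6 and adipose markers to 2716 CPM in mouse 1, each the highest of the 12 mice. Mouse 4 had the lowest parathyroid markers of the 12, at 29.5 CPM against 1807 to 4317 CPM in the others. Its C cell markers, at 1411 CPM, were also the lowest, against 2547 to 5723 CPM. The part of these tissues in the values was not tested. *Psph*, *Cth* and *Shmt1* went the other way, highest in mice 1 and 6. These orders over 5 mice were not tested.

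**Figure D4:**
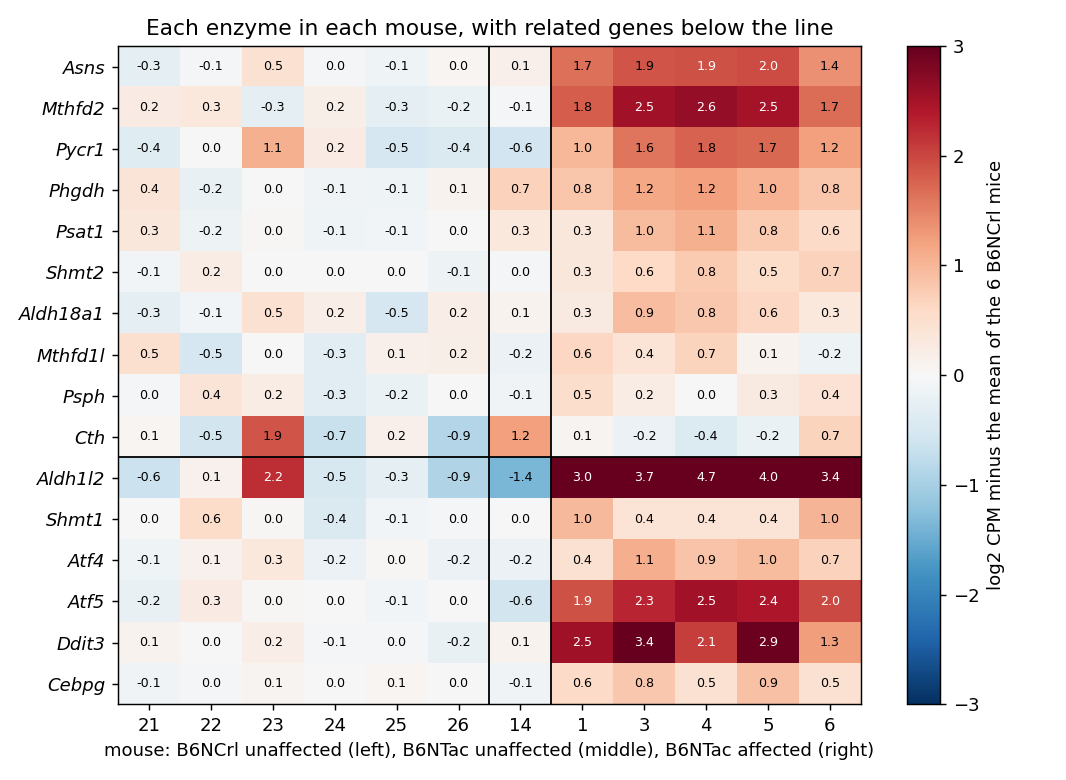
Log2 CPM of each gene in each mouse minus the mean of the 6 B6NCrl mice (color and printed value), with B6NCrl mice on the left, the unaffected B6NTac mouse in the middle and affected mice on the right, and related genes below the horizontal line. Affected mice 1 and 6 are paler than mice 3, 4 and 5 for *Asns*, *Mthfd2* and *Pycr1*, and unaffected mouse 23 is raised for *Pycr1*, *Cth* and *Aldh1l2*.

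The unaffected B6NTac mouse shares its colony background with the affected mice but lacks the phenotype. Its *Phgdh*, 0.69 on the log2 scale above the B6NCrl mean, was the highest of the unaffected mice, and its *Psat1*, 0.32 above, was second among them. Its *Asns* was 0.14 above the B6NCrl mean, where the SD of B6NCrl mice was 0.26. *Mthfd2* was 0.05 and *Shmt2* 0.03 below that mean, and its *Pycr1* was the lowest of the 7. Its *Psat1*, at 21.1 CPM, lay within the B6NCrl range of 15.1 to 21.5 CPM. In FPKM its *Psat1* was at 9.996, above the B6NCrl mice (up to 9.74) and below the affected mice (from 10.15). For *Mthfd2*, *Shmt2* and *Pycr1* this mouse therefore lay with the B6NCrl animals, and for *Phgdh* in CPM between them and the affected animals. It is a single mouse with the fewest counts and, with mouse 21, the highest T and B cell and dividing-cell markers, and mouse 21 was the second highest unaffected mouse for *Phgdh* and the highest for *Psat1*. Without both mice the log2 fold change was 1.1 ± 0.10 (SE) for *Phgdh* and 0.84 ± 0.13 (SE) for *Psat1*.

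Within the 7 unaffected mice the 10 genes did not vary as a block. Of their 45 pairs, 23 had a positive Pearson's r over these mice, and the median r was 0.02. The mean of the 10 was compared with *Tg* and 3 genes of the stress response over these 7 mice, 4 relations in all. With *Ddit3*, the ER stress factor CHOP, Pearson's r was 0.83 (exact permutation test, two-sided, p = 0.0212, adjusted over the 4 relations 0.0849) and Spearman's rho was 0.86 (exact p = 0.0238, adjusted 0.0952). Neither passed the correction. Without the mice farthest from the median of *Ddit3*, a pair, r was 0.87, and within the 6 B6NCrl mice it was 0.81 (exact p = 0.0417). Without unaffected mouse 23 it was 0.74 (exact p = 0.0903), and with *Cth* left out of the mean it was 0.67 (exact p = 0.0942). *Ddit3* ranged from 5.46 to 7.38 CPM in these mice, a narrow span beside the 15.4 to 67.1 CPM of affected mice. The name *Ddit3* has 2 entries among the genes measured, and the values given here are of the entry with more counts.

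The relations to *Atf4* (r = 0.50, exact p = 0.259, and rho = 0.18, exact p = 0.713), to *Hspa5* (r = 0.45, exact p = 0.319, and rho = 0.29, exact p = 0.556) and to *Tg* (r = -0.52, exact p = 0.230, and rho = -0.68, exact p = 0.110) did not pass either. Their adjusted p for r was 0.319 in each case, and for rho 0.713, 0.713 and 0.219. Leaving out the pair of mice farthest from each partner's median gave r of -0.50, 0.44 and -0.46. Within the 6 B6NCrl mice r was 0.69 with *Atf4* (exact p = 0.0917), 0.43 with *Hspa5* (exact p = 0.458) and -0.50 with *Tg* (exact p = 0.303).

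Transcriptional regulators linked to these enzymes were higher in affected mice for 5 of 7, beside 7.63% of all genes tested. They were listed with earlier results of these data known, so this count is not read as support. *Atf4* was at 78.8, 123, 104, 112 and 93.6 CPM in affected mice and 50.8 to 71.4 CPM in unaffected mice (median 52.6), without overlap, and its log2 fold change was 0.84 ± 0.12 (SE, adjusted p = 7.99e-04). *Atf5*, an ATF4 relative that acts on mitochondrial stress genes, rose by 2.31 ± 0.14 (SE, adjusted p = 3.52e-06) on the log2 scale. *Ddit3* rose by 2.61 ± 0.28 (SE, adjusted p = 1.70e-04) and *Cebpg*, the C/EBP partner of ATF4, by 0.66 ± 0.08 (SE, adjusted p = 3.13e-04). None of these 4 overlapped between the groups, where 3.78% of all genes had every affected mouse above every unaffected mouse. *Myc*, a growth factor-responsive activator of serine and folate genes, rose by 0.49 ± 0.15 (SE, adjusted p = 0.0436), a call lost in 17 of 24 alternatives. *Cebpb* (0.87 ± 0.31, SE, adjusted p = 0.0808) and the antioxidant factor *Nfe2l2* (0.15 ± 0.14, SE, adjusted p = 0.539) did not pass.

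Of 63 further enzymes from 5 lists, 56 could be tested, and 5 were higher and 1 lower, beside 7.63% and 6.1% of all genes. Without unaffected mice 14 and 21 these counts were 2 and 0. Their median log2 fold change was 0.14, where that of all genes tested was 0.01.

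In the serine and glycine list *Shmt1* alone passed of 7 tested. *Dld*, a subunit of the glycine cleavage system shared with other dehydrogenases, was at 0.57 ± 0.27 (SE, adjusted p = 0.183), and *Srr*, serine racemase, at 0.10 ± 0.07 (SE, adjusted p = 0.357). *Amt*, the aminomethyltransferase of glycine cleavage, was at -0.03 ± 0.17 (SE, adjusted p = 0.943).

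In the folate list *Aldh1l2* was higher and *Mthfd2l* lower of 14 tested. The purine synthesis enzymes *Gart* and *Atic*, which use the one-carbon units, were at 0.12 ± 0.08 (SE, adjusted p = 0.36) and 0.10 ± 0.06 (SE, adjusted p = 0.312). The mitochondrial folate carrier *Slc25a32* was at 0.02 ± 0.12 (SE, adjusted p = 0.938).

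In the aspartate and glutamate list none of 13 passed, also at an unadjusted p under 0.05. *Glul*, glutamine synthetase, was at 0.66 ± 0.35 (SE, adjusted p = 0.237), and *Got2*, the mitochondrial aspartate aminotransferase, at -0.17 ± 0.16 (SE, adjusted p = 0.508).

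In the proline and ornithine list 1 of 8 passed. *Odc1*, the first enzyme of polyamine synthesis, rose by 0.52 ± 0.14 (SE, adjusted p = 0.0252), a call lost in 4 of 24 alternatives. *Oat*, which links ornithine to glutamate semialdehyde, was at 0.28 ± 0.11 (SE, adjusted p = 0.105), and the proline-degrading *Prodh* and *Aldh4a1* were each at -0.14 (SE 0.15 and 0.12, adjusted p = 0.593 and 0.508).

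In the sulfur amino acid list 2 of 14 passed. *Gclm*, the regulatory subunit of glutathione synthesis, was at 38.9, 63.5, 53.0, 57.4 and 45.1 CPM in affected mice and 26.1 to 42.6 CPM in unaffected mice (median 30.6), a rise of 0.70 ± 0.14 (SE, adjusted p = 0.0057). Affected mouse 1 lay under unaffected mouse 23, and the other affected mice lay above the unaffected range. *Mtrr*, methionine synthase reductase, rose by 0.32 ± 0.09 (SE, adjusted p = 0.0399), a call lost in 18 of 24 alternatives. Methionine synthase itself, *Mtr*, was at -0.07 ± 0.09 (SE, adjusted p = 0.656), the S-adenosylmethionine synthetase *Mat2a* at 0.14 ± 0.07 (SE, adjusted p = 0.209), and the cysteine dioxygenase *Cdo1* at 0.93 ± 0.36 (SE, adjusted p = 0.113).

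**Figure D5:**
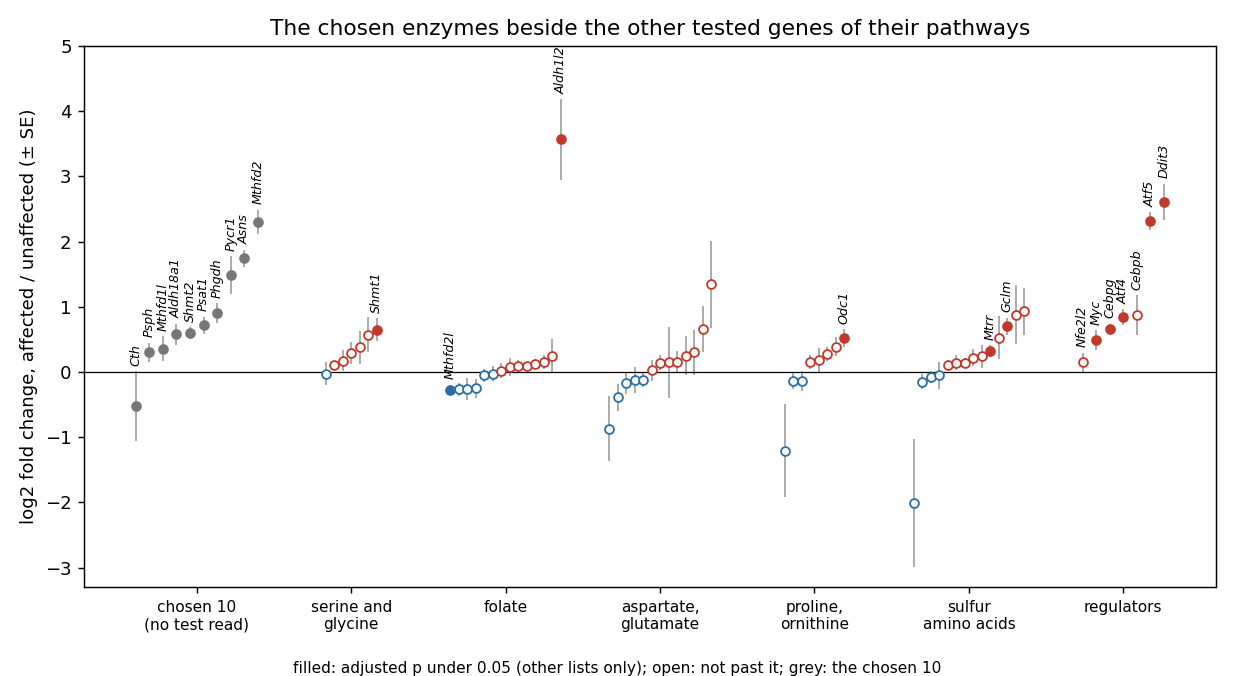
Log2 fold change of affected over unaffected mice ± SE (vertical axis) for the 10 chosen genes, the 56 tested enzymes of 5 related lists and 7 regulators. The chosen 10 are in grey and all filled, whatever their p. Outside the 10, filled points mark an adjusted p under 0.05 and open points the rest. Most enzymes outside the chosen 10 lie near 0, *Aldh1l2* is at 3.57, and 5 of the 7 regulators are filled.

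The tables also carry a second readout, the transcript length implied by a gene's count and FPKM together, which moves when a gene's mix of isoforms moves. For *Mthfd2* it was 1927 ± 58.6 bases (SD, n = 5) in affected and 1575 ± 96.5 bases (SD, n = 7) in unaffected mice, although unaffected libraries held as few as 45 counts. *Phgdh* was at 1810 ± 29.2 and 1663 ± 92 bases. *Pycr1* was at 1881 ± 109 and 2104 ± 102.3 bases, with as few as 18 counts. *Asns* (1972 ± 19.5 and 1956 ± 35.5 bases), *Psat1* (2307 ± 51.4 and 2308 ± 67.9 bases), *Shmt2* (1992 ± 93.6 and 1945 ± 72.6 bases) and *Aldh18a1* (3364 ± 99.8 and 3384 ± 116 bases) differed by less than the spread between mice. These lengths come from the comparison that chose the genes, and nothing is read from a test of them. Among 8946 genes with at least 100 counts in every mouse, 0.447% had a length that differed at an adjusted p under 0.05 (limma). *Phgdh* was in that set and not among those that differed (adjusted p = 0.193). *Mthfd2* and *Pycr1* had too few counts to be in it. With at least 30 counts in every mouse instead, *Mthfd2* was in the set and differed. Its length was greater in affected mice by 0.29 on the log2 scale (adjusted p = 0.0173, limma). None of the other chosen genes in either set differed, and *Pycr1* had too few counts for both.

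The genes most like the mean of the 10 in how single mice deviated from their group, over 12 mice and among 9873 genes of at least 10 CPM outside the lists, were *Izumo4* (r = 0.91), *C1galt1* (r = 0.91), *Gmds* (r = 0.88), *Galnt4* (r = 0.87) and *Galnt7* (r = 0.87). *C1galt1*, *Galnt4* and *Galnt7* build O-linked glycans and *Gmds* makes the fucose donor. These r are the highest of 9873 and were not tested against chance, and no shared function is read from them. *Cth* had the widest spread of the 10 in unaffected mice, with an SD of 1.04 on the log2 scale, and so weighed most on that mean. With *Cth* left out, the same r fell to 0.87, 0.81, 0.86, 0.67 and 0.66.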

How the data were processed

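Per the methods and labels, the authors built libraries from total thyroid RNA after ribosomal RNA removal, aligned reads in OmicSoft Array Studio and deposited estimated counts per gene, which are not normalized, and FPKM values normalized to gene length and library size by the authors. Strand use in counting is not given in the sources used here. The study's methods name no test for expression. The 10 genes and the pathway lists were chosen with earlier results of these data known.

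Estimated counts were rounded to whole numbers, filtered with filterByExpr (minimum count 10), scaled by TMM and fitted over the 12 mice with edgeR 4.0.16 (R 4.3.3; robust quasi-likelihood, no covariates), with Benjamini-Hochberg adjustment over 19661 genes and a threshold of 0.05. CPM is on the TMM scale and log2 CPM has a prior count of 2. The implied length is the count divided by FPKM and the library total, tested with limma 3.58.1. Both fits were tested on simulated data. Each library is 1 mouse, and mice were not paired. Relations were tested by exact permutation (scipy 1.17.1). Named genes were the 10, their isozymes, the regulators, each called gene of the 5 lists and up to 3 others of highest CPM. Some genes that meet this rule are withheld and are not reported here. Other alternatives were DESeq2 1.42.0, other scalings and filters, B6NCrl controls alone, limma on FPKM (pseudocount 1 or 0.1, a mean of at least 0.5 or no minimum), *Xist* as a covariate, and leaving out each mouse. The means without *Cth* and the fits without libraries over 20 CPM of summed T and B cell markers were added after seeing the data.

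The lists of C cells, parathyroid, skeletal muscle, adipose tissue and T and B cells had 0 genes past the threshold (of 5, 3, 6, 6 and 3 tested; at an unadjusted p under 0.05, adipose had 2 and the others 0), although T and B cell markers set 4 libraries apart. Fibroblast markers had 2 of 6 higher and endothelial markers 1 of 5 lower, beside 7.63% and 6.1% of all genes tested. Summed fibroblast markers were at 1186 and 1126 CPM in affected mice 1 and 6 and 757 to 839 CPM in the other affected mice. In unaffected mice they were at 570 to 819 CPM. Depth limits *Cth* and *Pycr1* most.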

Additional observations from a re-analysis of the deposited data

Results flagged for a closer look

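In 46 groups of mice looked at, for 23 genes with 5 or 7 mice each, 4 held a mouse far from the rest of its group by Dixon's criterion. Chance flags about 1 in 20 groups. *Pycr1* (4.87 CPM) and *Aldh1l2* (10.2 CPM) were high in unaffected mouse 23, where the next unaffected mouse had 2.70 and 2.31 CPM. *Shmt2* (15.9 CPM) and *Shmt1* (9.29 CPM) were high in unaffected mouse 22. Without mouse 23 the log2 fold change of *Pycr1* was 1.77.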

How the results depend on the processing

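Log2 fold changes of 9 of the 10 enzymes kept their direction in each alternative that could be fitted, and that of *Cth* lay between -0.75 and 0.01. *Mthfd2* fell to 1.62 on the log2(FPKM + 1) scale, and the parts of the pseudocount and of its implied length in this were not tested. The count of 2699 genes between the groups became 1339 with limma on log2(FPKM + 1) without a filter, and 1774 to 3390 when single mice were left out (1774 without affected mouse 5). DESeq2 called 3597. Without the 4 libraries rich in T and B cell markers 1019 were called, and without the 2 unaffected ones among them 1852. The 5 further pathway enzymes called higher became 3 with limma on log2(FPKM + 1) without a filter, 2 without either set of T and B cell marker libraries, and 2 to 6 without single mice. The 1 called lower became 2 with library totals without *Tg*, 0 with plain library totals, without the count filter, with the B6NCrl mice alone as controls, in the 3 limma settings on FPKM, with *Xist* as a covariate and without either set of T and B cell marker libraries, and 0 to 2 without single mice. Length shifts fell from 40 to 21 with B6NCrl controls alone and ranged from 15 to 41 without single mice. Of the relations in unaffected mice, r with *Atf4* ranged from -0.39 to 0.69, with *Ddit3* from 0.74 to 0.94 and with *Hspa5* from 0.018 to 0.82 without single mice. *Aldh1l2* and *Cth* could not be tested with at least 10 counts in every mouse. With *Cth* out of the mean, r with *Ddit3* was 0.67. The cause of these changes was not tested. No paired analysis was possible because the groups share no replicate numbers.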

Other observations

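Unaffected mouse 23 had the highest level of the unaffected group for *Asns*, *Aldh18a1*, *Pycr1* and *Cth* among the 10 enzymes. It also stood apart in enzymes of the related lists that are known best from liver, which were picked here after their values were seen. *Mat1a*, which makes S-adenosylmethionine in hepatocytes, was at 32.3 CPM in it and at 5.93 CPM in the next unaffected mouse, the B6NTac animal. *Bhmt*, which remethylates homocysteine from betaine, was at 16.7 CPM against 2.75 CPM in the next. *Arg1*, the arginase of the urea cycle, was at 7.48 CPM against 1.17 CPM, and *Ftcd*, which degrades histidine-derived formiminoglutamate, was at 1.82 CPM against 0.167 CPM. *Cth* was at 2.71 CPM against 1.67 CPM. The part of these in the value of *Cth* was not tested.

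With *Cth* left out of the mean, the genes most like the other 9 in how mice deviated from their group over 12 mice were *Il34* (r = 0.94), *Sfn* (r = 0.93), *Tmem263* (r = 0.93), *Emd* (r = 0.92) and *Mansc1* (r = 0.91), none of which was among the 5 named with *Cth* included. These r were not tested against chance either. Single enzymes followed the mean of the 10 unequally, from r = 0.76 for *Asns* and 0.69 for *Aldh18a1* and *Pycr1* down to 0.27 for *Mthfd2*, 0.18 for *Shmt2* and 0.00 for *Psph*. That mean includes each enzyme itself, which raises r most for genes with a wide spread. *Cth*, with the widest spread in unaffected mice, was at 0.61.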
